A study of Mus musculus with 17 samples.

Results

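Gata3, Tox and Myb encode nuclear regulators that act while thymocytes choose the CD4 lineage, and they are described here by their histone marks in 3 groups of mature mouse thymocytes and by the Tcf1 peaks around them. Members are all deposited intervals that overlap 3 fixed windows of the mm9 build: chromosome 2, 9770000 to 9810000 (Gata3), chromosome 4, 6605000 to 6930000 (Tox), and chromosome 10, 20840000 to 20890000 (Myb). The windows held 67 of 354506 intervals of the series: 61 of 346699 islands, the enriched intervals called in each histone library, and 6 of 7807 Tcf1 peaks. Of the 61 islands, 18 lay in the Gata3 window, 30 in the Tox window and 13 in the Myb window.

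The groups were wild-type CD8 thymocytes (WT CD8), CD8 thymocytes with the genotype Tcf1-/-Lef1-/- (DKO CD8), in which CD4-Cre had deleted both factors, and wild-type CD4 thymocytes (WT CD4). CD4-Cre is a recombinase driven by Cd4 regulatory sequence and is active once thymocytes express CD4. The sort for CD8 cells took those with high TCRβ and neither CD69 nor CD24. WT CD4 samples carry the same phenotype label, which names CD8, and were placed by their titles and source names. Tcf1 binding was mapped in wild-type splenic TCRβ-high CD8 cells, with Tcf1-/- cells as the control. Not given in the sources used here are age, sex and pooling of animals. The sorted identities and the deletion were not checked, because no mm9 gene annotation was used. Each group had 1 library per mark, so no difference has a replicate check and no p-value is given; 95% intervals cover counting error only. In sorted populations a change in all cells and a change in a share of them cannot be told apart.

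Gata3 is a zinc-finger transcription factor needed for CD4 thymocyte development and later for type 2 helper T cells. Tox is a protein with an HMG-box DNA-binding domain, required for CD4 lineage development in the thymus. Myb is a transcription factor of immature blood cells and thymocytes that acts ahead of Gata3 in CD4 commitment. Tcf1 and Lef1 are related HMG-box factors that recognise DNA with the core CTTTG. H3K4me3 marks mainly promoters in use, the acetyl marks H3K27ac and H3K9ac also mark enhancers in use, and H3K27me3 is laid down by Polycomb proteins where genes are silenced.

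The promoters of Gata3 and Myb are shown because H3K4me3, compared between groups below, typically marks CpG-rich promoters. The sequences are from RefSeq on GRCm38.p6, a build other than that of the islands, so they are not placed against the mm9 coordinates. They are the 250 bases before the annotated start, 5′ to 3′, with capitals at each CpG; 2 of the 3 genes were matched. Both genes lie on the minus strand, so sequence ahead of their starts has higher coordinates.
Gata3 (chr2:9878601-9878850, minus strand): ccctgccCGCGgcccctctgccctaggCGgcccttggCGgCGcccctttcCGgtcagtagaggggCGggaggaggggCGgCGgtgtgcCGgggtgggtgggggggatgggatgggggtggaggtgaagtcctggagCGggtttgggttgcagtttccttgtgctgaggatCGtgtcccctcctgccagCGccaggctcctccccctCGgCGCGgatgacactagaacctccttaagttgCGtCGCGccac
Myb (chr10:21160985-21161234, minus strand): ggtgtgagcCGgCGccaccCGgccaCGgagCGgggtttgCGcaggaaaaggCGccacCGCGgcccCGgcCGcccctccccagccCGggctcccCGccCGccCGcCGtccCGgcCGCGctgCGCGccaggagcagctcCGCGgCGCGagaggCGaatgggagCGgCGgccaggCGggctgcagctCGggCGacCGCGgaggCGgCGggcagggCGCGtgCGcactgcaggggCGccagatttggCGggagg
Myb, site in the first bases after the start: ccaaacctCTTTGtttgatgg

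The Gata3 sequence had 19 CpGs and 70.0% G or C, and the Myb sequence 40 CpGs and 81.2%. Over 32851 RefSeq promoters the medians were 6 CpGs and 52.4%. Searched on both strands, CTTTG did not occur in either 250-base sequence, while 48.6% of all promoters held it there. In Myb it began at base 17 after the start, where it is capitalised in the short sequence above and forms part of CTTTGTT. Over all 300-base promoters, 53.9% held CTTTG and 5.85% held CTTTGTT.

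Each gene had 1 region that carried H3K4me3 and both acetylation marks in wild-type cells, called its main region below. A region is the union of islands of the 3 libraries of a mark that share at least 1 bp, and the main region of a mark is the one with the most reads. For H3K4me3 it spanned 9797801 to 9800600 at Gata3, 6916001 to 6919200 at Tox and 20877801 to 20881600 at Myb. In the 3 windows together, each group had 3 H3K27ac islands that overlapped its own H3K4me3, 1 per gene. H3K27ac islands without H3K4me3 of the same group were 3 of 6 in WT CD8 (74.4% of that list over the genome), 8 of 11 in DKO CD8 (73.6%) and 10 of 13 in WT CD4 (60.3%).

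Depth sets how the values can be compared. Island reads summed to between 248234 (WT CD8 H3K9ac) and 4025243 (WT CD4 H3K27me3) per library, and the H3K27ac totals were close, at 2505720 in WT CD4, against 2056894 in WT CD8 and 1959297 in DKO CD8. At H3K27ac regions shared by a pair of libraries, however, the median ratio was 2.75-fold for DKO CD8 over WT CD8 and 3.69-fold for WT CD4 over WT CD8, but 0.761-fold for DKO CD8 over WT CD4. Ratios below are divided by this median over the whole genome (the median scale), and the ratio on total island reads (the total scale) is given where it matters. The 2 scales differ by 0.04 (log2) for H3K27ac between DKO CD8 and WT CD4, so that comparison hardly depends on the choice, and by 1.53 and 1.60 when WT CD8 is the reference.

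H3K27ac at the main region of all 3 genes was lower in DKO CD8 than in WT CD4. On the median scale it was 0.529-fold at Gata3, 0.383-fold at Tox and 0.333-fold at Myb. The region of Gata3, 9792601 to 9801400, held 482 reads in WT CD4, against 78 in WT CD8 and 194 in DKO CD8. The region of Tox, 6915801 to 6919000, held 425, 78 and 124 reads, in the same order of groups. The region of Myb, 20878001 to 20882000, held 256, 76 and 65. WT CD4 was thus highest at each gene in unscaled reads. In these reads DKO CD8 lay between the wild-type groups at Gata3 and Tox and lowest at Myb. Its unscaled counting interval at Myb (50.2 to 82.9 reads) overlapped that of WT CD8 (59.9 to 95.1). This order and overlap include the library differences given above. The log2 ratio of DKO CD8 over WT CD8 at Myb was -1.69 (-2.19 to -1.19) on the median scale. On the total scale it was -0.16 (-0.66 to 0.34).

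**Figure D1:**
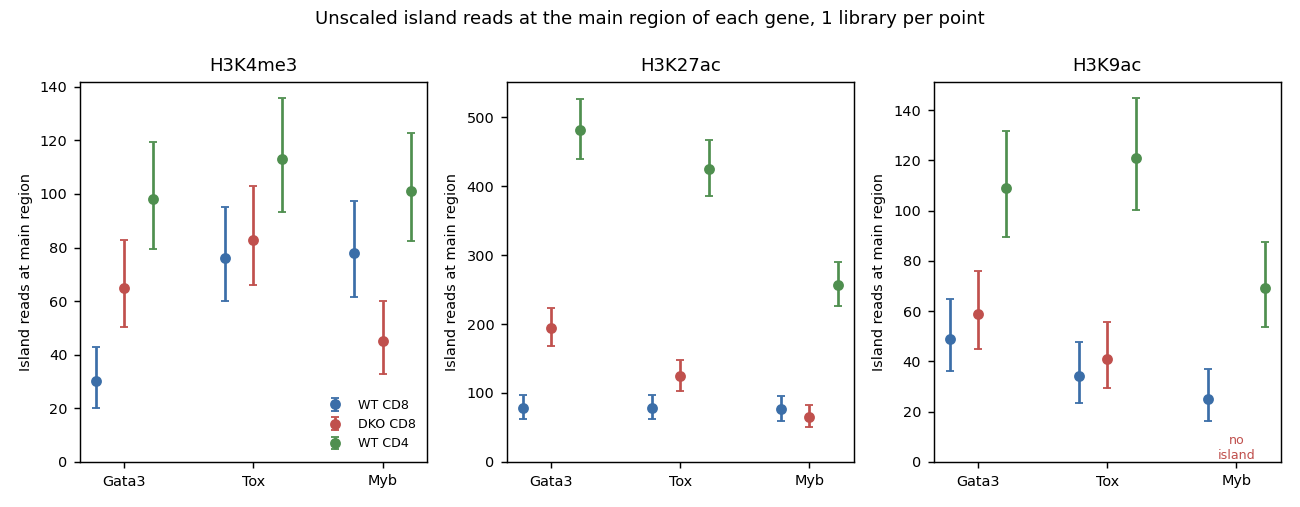
Unscaled island reads (y axis) at the main region of Gata3, Tox and Myb (x axis) for H3K4me3, H3K27ac and H3K9ac. Each point is 1 library (blue WT CD8, red DKO CD8, green WT CD4) with its exact 95% Poisson interval, and in the middle panel WT CD4 has 482, 425 and 256 reads against 194, 124 and 65 in DKO CD8.

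As log2 ratios, DKO CD8 over WT CD4 came to -0.92 at Gata3 (95% interval -1.17 to -0.68), -1.38 at Tox (-1.68 to -1.09) and -1.58 at Myb (-2.00 to -1.19) on the median scale, and to -0.96, -1.42 and -1.62 on the total scale. Of all 16264 H3K27ac regions shared by these libraries, 8.60% had a lower ratio than Gata3, 3.03% than Tox and 1.85% than Myb. In summed reads, all 6 shared H3K27ac regions of the windows were below 0 on both scales, with a median of -1.22, where the median of all shared regions is 0. At least 2-fold lower were 4 of the 6, beside 7.29% of shared regions over the genome, and none was 2-fold higher, beside 4.32%. Per kb of island, unscaled, the Tox region 6822801 to 6825000 was denser in DKO CD8 than in WT CD4, at 27.5 against 20.5 reads. The Tox region 6608001 to 6610600 was nearly level, at 23.0 against 24.2, and the others were less dense in DKO CD8.

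Against WT CD8, the direction for H3K27ac depended on the scale. On the median scale DKO CD8 was lower at Myb (log2 ratio -1.69, -2.19 to -1.19), lower at Tox (-0.79, -1.21 to -0.36) and close to WT CD8 at Gata3 (-0.14, -0.53 to 0.25). The total scale gave -0.16 at Myb, 0.74 at Tox and 1.38 at Gata3, and reads per kb of island on the median scale gave -0.52, 0.09 and -0.57. On the median scale 1 of 4 shared H3K27ac regions was at least 2-fold lower in DKO CD8 (genome 15.1%) and none was 2-fold higher (genome 8.19%). WT CD4 over WT CD8 gave 0.74 at Gata3 (0.39 to 1.11), 0.56 at Tox (0.21 to 0.93) and -0.13 at Myb (-0.51 to 0.26), with 2.34, 2.16 and 1.47 on the total scale and -0.05, 1.43 and 0.60 per kb of island. None of 5 shared regions passed 2-fold higher (genome 6.33%) or lower (genome 13.6%) there. These ratios share libraries with one another, so they are not independent.

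Ratios between genes within a library do not depend on the choice between the median and the total scale, but they do depend on island length. Relative to Myb, Gata3 H3K27ac in summed reads was 2.91-fold higher in DKO CD8 than in WT CD8 (log2 1.54, 0.90 to 2.18) and 1.59-fold higher than in WT CD4 (0.66, 0.19 to 1.15). Tox relative to Myb was 1.86-fold higher in DKO CD8 than in WT CD8 (0.89, 0.23 to 1.56), and its difference from WT CD4 was within counting error (0.20, -0.30 to 0.71). Per kb of island, an alternative chosen after seeing the data, Gata3 relative to Myb was 0.964-fold in DKO CD8 against WT CD8 (log2 -0.05), so that difference was gone, and 1.51-fold against WT CD4 (0.60). Tox relative to Myb was 1.52-fold in DKO CD8 against WT CD8 (0.61) and 0.854-fold against WT CD4 (-0.23). As a level per kb of island, H3K27ac in WT CD8 was 30.0 reads at Gata3, 26.0 at Tox and 22.4 at Myb. In DKO CD8 it was 32.3, 44.3 and 25.0, and in WT CD4 54.8, 133 and 64.0. Tox was thus the densest of the 3 in DKO CD8 and WT CD4 but not in WT CD8. Among the 9885 H3K27ac regions called in all 3 groups, Myb had more reads than 86.2% in WT CD8, than 29.2% in DKO CD8 and than 82.2% in WT CD4. For Tox these shares were 86.9%, 61.8% and 93.9%, and for Gata3 86.9%, 81.3% and 95.4%.

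**Figure D2:**
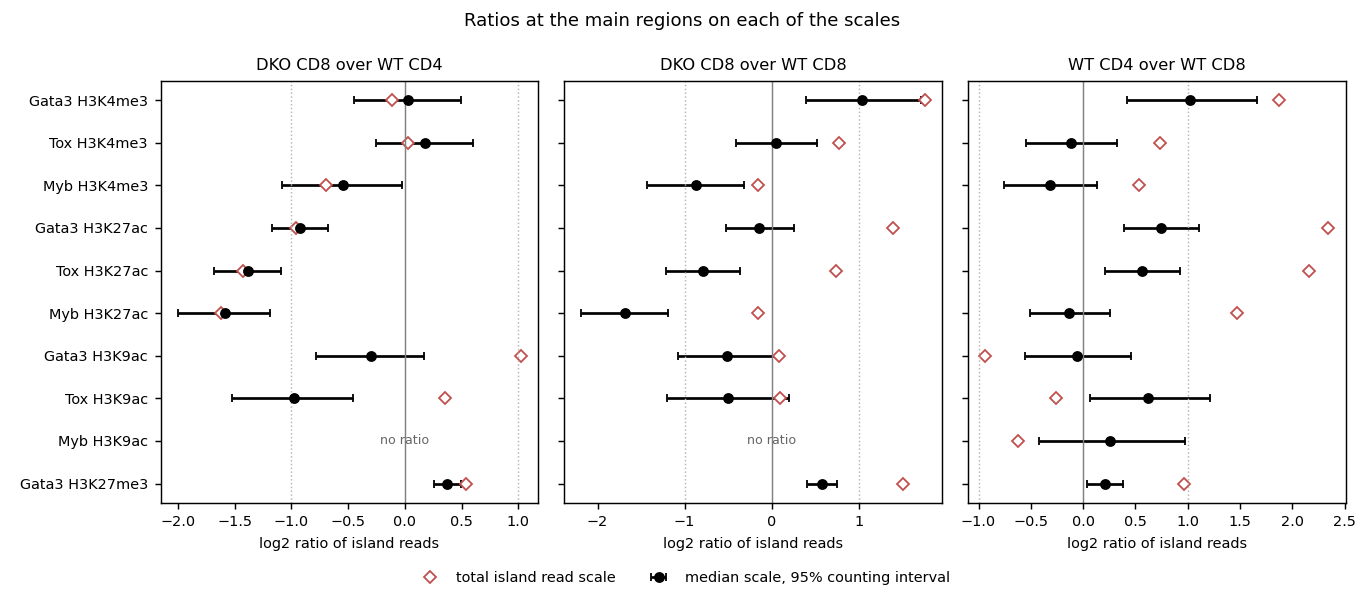
Log2 ratios of island reads (x axis) at the main region of each gene and mark (y axis) for the 3 pairs of groups. Filled circles are on the median scale with 95% counting intervals, open diamonds on the total scale, dotted lines mark 2-fold, and the 3 H3K27ac values of DKO CD8 over WT CD4 lie below 0 on both scales.

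At Gata3, the acetylated sequence was also wider in WT CD4. The main H3K27ac region was a single island of 8.8 kb in WT CD4, with 54.8 reads per kb of island. In WT CD8 it was an island of 2600 bp with 30.0 reads per kb. DKO CD8 had 2 islands in the same span, 9792801 to 9794800 with 45 reads and 9797401 to 9801400 with 149 reads, separated by 2600 bp without an island. Reads between islands are not known, so a ratio over the whole region can be too low for the library with less island length. Per kb of island the DKO CD8 over WT CD4 ratio at Gata3 was -0.58, with the same sign.

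**Figure D3:**
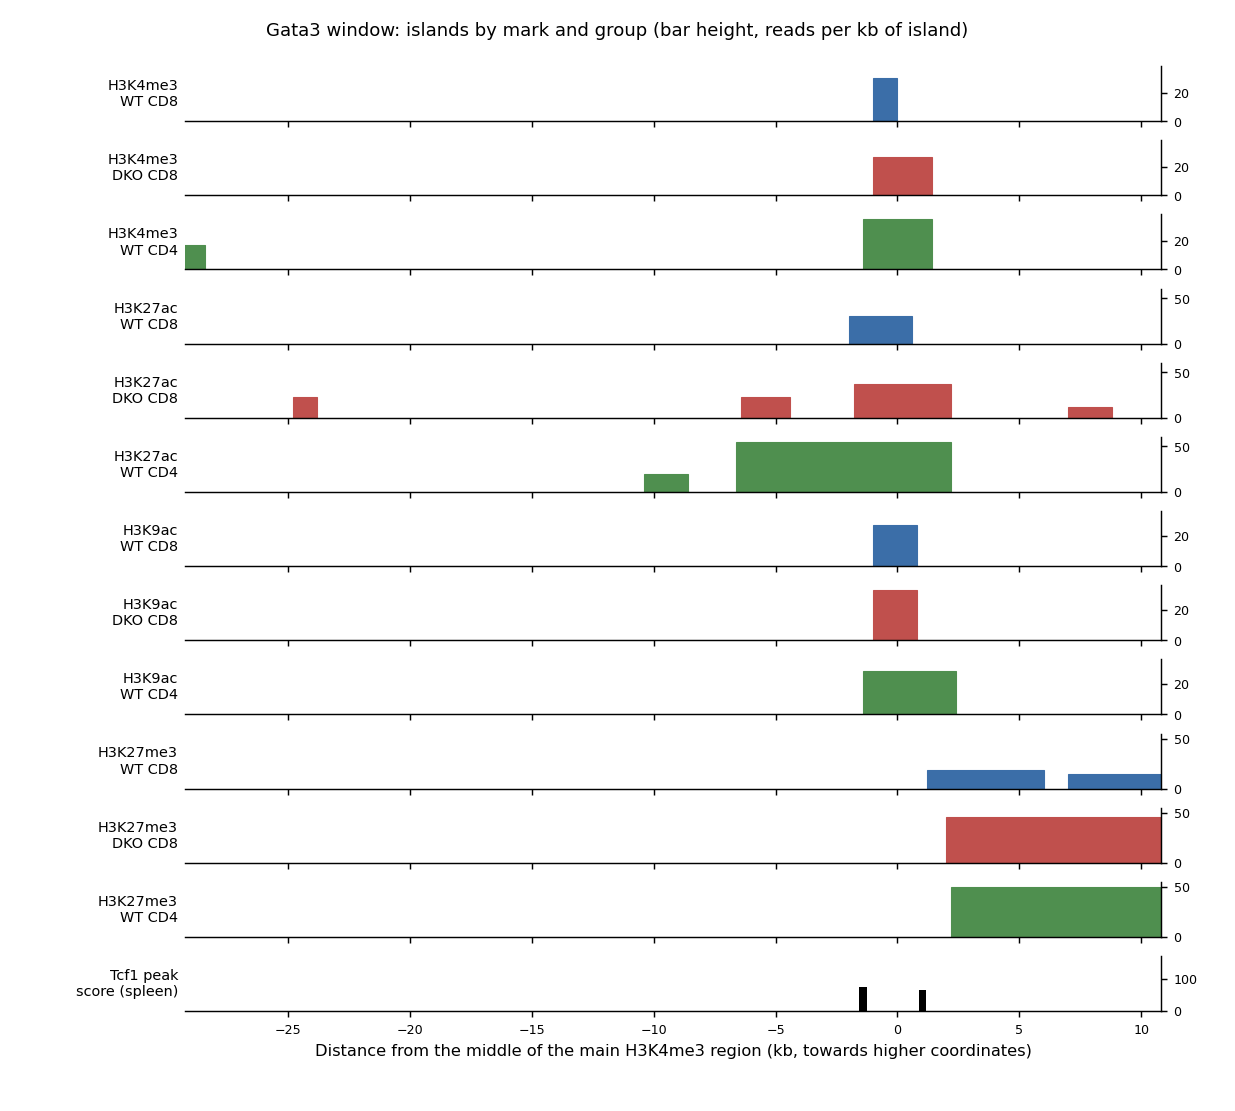
Islands in the Gata3 window by mark and group, and Tcf1 peaks from spleen (last row). The x axis is the distance in kb from the middle of the main H3K4me3 region, bar height is reads per kb of island (score for Tcf1), and H3K27me3 bars run on beyond the right edge; the main active islands lie mostly left of the H3K27me3 domain, a weak DKO CD8 H3K27ac island lies inside it, and the WT CD4 H3K27ac island is the widest of its mark.

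Summed over its region, H3K4me3 at Gata3 was lowest in WT CD8. It held 98 reads in WT CD4, against 30 in WT CD8 and 65 in DKO CD8, in islands of 2800, 1000 and 2400 bp. The log2 ratio was 1.04 for DKO CD8 over WT CD8 (0.39 to 1.71) and 1.02 for WT CD4 over WT CD8 (0.42 to 1.66), while DKO CD8 and WT CD4 differed by 0.03 (-0.45 to 0.50). On the total scale the first 2 became 1.76 and 1.87. Per kb of island, however, the densities were 35.0, 30.0 and 27.1, and both ratios changed sign, to -0.18 and -0.22. The difference in summed reads thus went with the length of the called island. Reads outside islands are unknown, so a lower level and a shorter extent cannot be told apart. On the median scale it was 1 of 3 shared H3K4me3 regions that passed 2-fold higher than WT CD8 (genome 5.9% for DKO CD8 and 6.17% for WT CD4). None of the 3 was 2-fold lower (genome 7.42% and 8.1%), and DKO CD8 and WT CD4 differed by 2-fold at none (genome 6.08% higher in DKO CD8 and 4.35% lower). A weak H3K4me3 island at the low edge of the window, 9769401 to 9770800 with 24 reads, was called in WT CD4 only.

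H3K9ac at Gata3 held 109 reads in WT CD4, against 49 in WT CD8 and 59 in DKO CD8. The ratio was -0.51 for DKO CD8 over WT CD8 (-1.08 to 0.07), -0.06 for WT CD4 over WT CD8 (-0.55 to 0.46) and -0.30 for DKO CD8 over WT CD4 (-0.78 to 0.17). On the median scale all 3 intervals include 0. Of the H3K9ac regions shared in the windows, 0 of 2 passed 2-fold between the CD8 groups (genome 3.88% higher in DKO CD8, 3.63% lower), 0 of 3 between the wild-type groups (6.36% higher in WT CD4, 11.4% lower) and 0 of 2 between DKO CD8 and WT CD4 (6.07% and 3.43%). On the total scale the Gata3 values were 0.09, -0.94 and 1.03, so the sign of the first and the last turned. The WT CD8 and DKO CD8 islands had identical bounds, 9798201 to 9800000, and the WT CD4 island reached from 9797801 to 9801600.

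Gata3 was the only one of the 3 genes with H3K27me3 in its window. A broad H3K27me3 domain lay on the side of higher coordinates, which is upstream on the minus strand. In WT CD8 it comprised 2 islands with 309 reads, 9800401 to 9805200 and 9806201 to 9821200. DKO CD8 had 1 island, 9801201 to 9826200, with 1151 reads, and WT CD4 had 1, 9801401 to 9823200, with 1091. The island density was 50.0 reads per kb in WT CD4, against 15.6 in WT CD8 and 46.0 in DKO CD8. The whole merged region, 9800401 to 9830400, also took in 1 smaller island beyond the window in each CD8 group and held 356 (WT CD8), 1209 (DKO CD8) and 1091 (WT CD4) reads. Its log2 ratio was 0.57 for DKO CD8 over WT CD8 (0.40 to 0.75), 0.21 for WT CD4 over WT CD8 (0.03 to 0.38) and 0.37 for DKO CD8 over WT CD4 (0.26 to 0.49). On the total scale these were 1.51, 0.97 and 0.54, and per kb of island they were 0.71, 0.93 and -0.18. None passed 2-fold on the median scale. Over the genome 7.45% of shared H3K27me3 regions were 2-fold higher and 21.4% lower in DKO CD8 than in WT CD8, 7.09% and 19% in WT CD4 than in WT CD8, and 3.89% and 8.79% in DKO CD8 than in WT CD4. All groups thus had this H3K27me3 domain, and in WT CD4 it stood beside the most H3K27ac reads.

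The border between the active marks and H3K27me3 at Gata3 was not in the same place in the 3 groups. The H3K27me3 domain began at 9800401 in WT CD8, at 9801201 in DKO CD8 and at 9801401 in WT CD4. H3K27ac ended at 9799800 in WT CD8, 600 bp before the domain, and at 9801400 in both other groups, which is the last base before the domain in WT CD4 and 200 bp inside it in DKO CD8. H3K4me3 ended at 9799200 in WT CD8 and at 9800600 in both others. For H3K9ac, in contrast, both CD8 groups ended at 9800000, which is 400 bp before the domain in WT CD8 and 1200 bp before it in DKO CD8, and WT CD4 ended at 9801600, 200 bp inside it. Islands lie on a grid of 200 bp, and a deeper library can extend an island, so these shifts have no error estimate. In DKO CD8 a further weak H3K27ac island, 9806201 to 9808000 with 22 reads, lay wholly within the H3K27me3 domain, so 2 of the 11 DKO CD8 H3K27ac islands of the windows overlapped H3K27me3 (genome 13.6%). None of the 6 WT CD8 islands did (genome 33.3%), nor any of the 13 of WT CD4 (genome 14.8%).

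The groups also differed in Tox H3K27ac away from the main region. In its 325 kb window WT CD4 had 10 H3K27ac islands with 895 reads over 20.2 kb, DKO CD8 had 5 with 216 reads over 6.8 kb, and WT CD8 had 4 with 124 reads over 5.0 kb. Outside the main region these were 470 reads in WT CD4, 92 in DKO CD8 and 46 in WT CD8. As a share of the H3K27ac island reads of the window that is 52.5% (exact Clopper-Pearson 49.2 to 55.8) in WT CD4, 42.6% (35.9 to 49.5) in DKO CD8 and 37.1% (28.6 to 46.2) in WT CD8. The share does not depend on the scale, but it does depend on which weak islands each list holds.

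**Figure D4:**
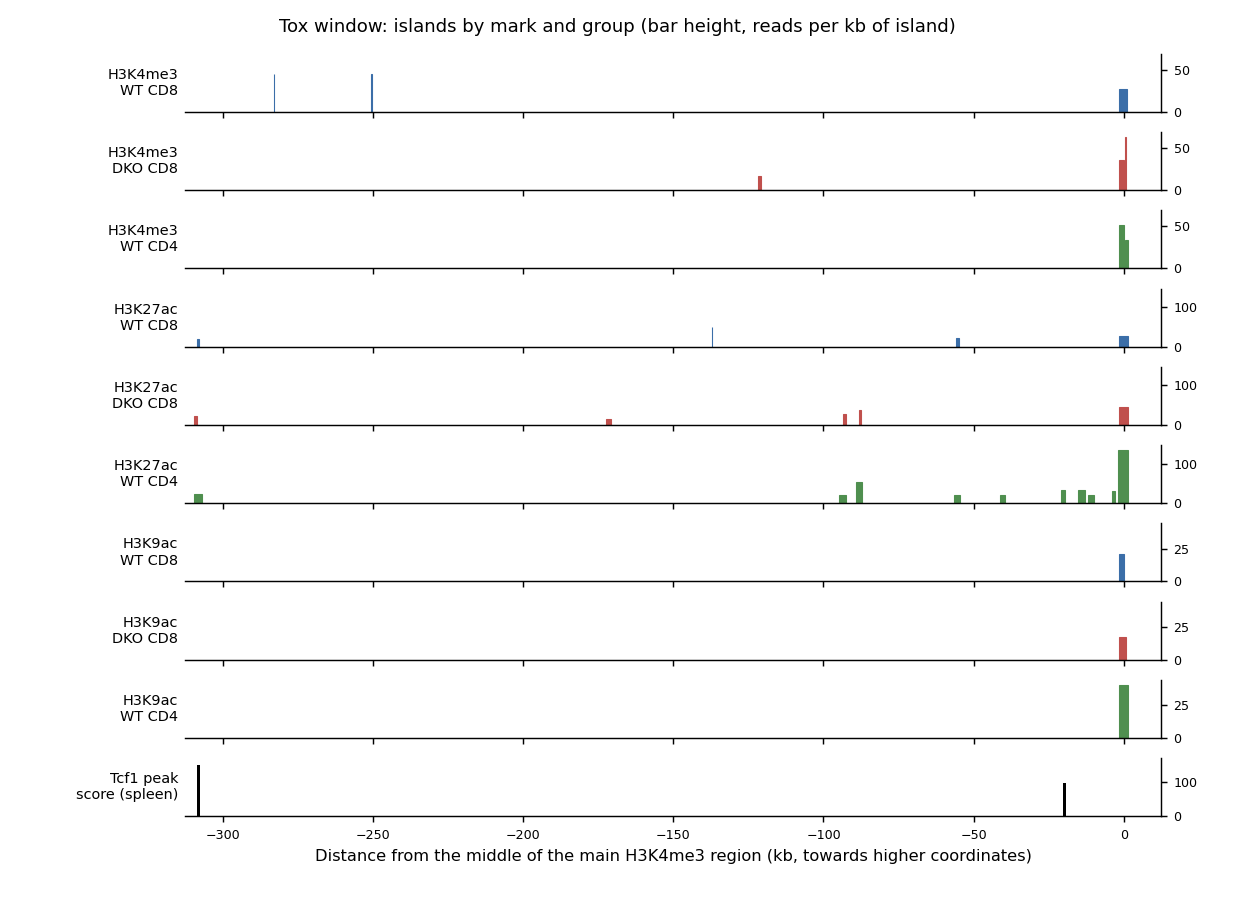
Islands in the Tox window by mark and group, and Tcf1 peaks from spleen (last row; the 2 peaks at the far left merge at this scale). The x axis is the distance in kb from the middle of the main H3K4me3 region and bar height is reads per kb of island (score for Tcf1). WT CD4 has 6 H3K27ac islands with middles 3.4 to 55.5 kb left of that point, a stretch bounded by these islands, in which WT CD8 has 1 and DKO CD8 none.

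WT CD4 had 6 H3K27ac islands with middles 3.4 to 55.5 kb from the middle of the main H3K4me3 region, towards lower coordinates. This stretch was chosen after seeing the data and is bounded by the WT CD4 islands themselves, so that DKO CD8 had 0 islands in it and WT CD8 had 1 is a description. The strongest spanned 6902401 to 6904800 and held 77 reads in WT CD4. At the median ratio DKO CD8 would have had 58.6 reads there, and the DKO CD8 list holds islands at least as wide with as few as 21 reads. The island 6896601 to 6898200, with a Tcf1 peak, held 52 WT CD4 reads, which corresponds to 39.6 in DKO CD8, where the smallest island of that width or more had 17. In WT CD8, in contrast, the same 2 regions would have had 20.8 and 14.1 reads on the median scale, near the smallest islands of that width there (20 and 14), and 63.2 and 42.7 on the total scale, so whether an island could have been called in WT CD8 depends on the scale. The other 4, at 6861001 to 6863200, 6876401 to 6878000, 6905801 to 6907600 and 6913801 to 6914600, held 24 to 43 reads in WT CD4, and the first of them also had 21 reads in WT CD8.

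Farther away, DKO CD8 and WT CD4 shared H3K27ac at 3 places in the Tox window. The region 6828601 to 6830400, at -88.1 kb from the middle of the main H3K4me3 region, held 96 reads in WT CD4 and 22 in DKO CD8, a log2 ratio of -1.73 (-2.47 to -1.05; -1.77 on the total scale). WT CD8 had no island there. At the median ratio it would have had 26.0 reads from the WT CD4 value, above the 15 reads of its smallest island of that width, but 8.0 from the DKO CD8 value, below 11. On the total scale the values would be 78.8 and 23.1, both above those minimums. The answer from the WT CD4 value was thus the same on both scales, and that from the DKO CD8 value depends on the scale. Next to it, 6822801 to 6825000 held 45 and 22 reads (-0.64, -1.44 to 0.13), again without a WT CD8 island. The region 6608001 to 6610600, at the far end of the window, was called in all groups with 63 reads in WT CD4, against 15 in WT CD8 and 23 in DKO CD8, and DKO CD8 over WT CD4 was -1.06 (-1.82 to -0.35). In the regions at 6822801 and 6608001 the DKO CD8 islands spanned 800 and 1000 bp, against 2200 and 2600 bp in WT CD4. Unscaled density there was 27.5 and 23.0 reads per kb of island in DKO CD8, against 20.5 and 24.2 in WT CD4. At 6828601 it was 36.7 in DKO CD8 and 53.3 in WT CD4. The DKO CD8 island at 6745201 to 6746800 (25 reads) and the WT CD8 one at 6780401 to 6780600 (10 reads) were found in 1 library each.

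Over the 3 windows, 7 of 17 H3K27ac regions were called in WT CD4 and not in DKO CD8, beside 21.5% over the genome, and 4 in DKO CD8 and not in WT CD4, beside 33.4%. The 4 in DKO CD8 held 21 to 25 reads. Against WT CD8, 8 of 14 were called in WT CD4 alone (genome 18.8%) and 1 in WT CD8 alone (genome 64.9%), and DKO CD8 had 6 of 12 alone (genome 23.9%) with 2 in WT CD8 alone (genome 61.2%). The WT CD8 list is the longest of the 3 H3K27ac lists, with 56985 islands and a median of 24 reads. For H3K4me3, WT CD8 and DKO CD8 had 2 and 1 of 6 regions alone (genome 59.5% and 27.3%), WT CD8 and WT CD4 had 2 and 1 of 6 alone (54.3% and 32.7%), and DKO CD8 and WT CD4 had 1 each of 5 (35.7% and 47.2%). Over H3K4me3, H3K27ac and H3K9ac together, shared regions past 2-fold in DKO CD8 against WT CD8 were 1 higher and 1 lower of 9 (genome 6.8% and 10.9%). In WT CD4 against WT CD8 they were 1 higher and 0 lower of 11 (6.28% and 11.3%), and in DKO CD8 against WT CD4 0 higher and 4 lower of 11 (5.07% and 5.88%). The 4 are all H3K27ac.

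H3K4me3 at the main region of Tox held 113 reads in WT CD4, against 76 in WT CD8 and 83 in DKO CD8, and the 3 ratios on the median scale, 0.05 for DKO CD8 over WT CD8 (-0.42 to 0.52), -0.12 for WT CD4 over WT CD8 (-0.55 to 0.32) and 0.18 for DKO CD8 over WT CD4 (-0.25 to 0.60), all had intervals that include 0. The ratios to WT CD8 were 0.77 and 0.74 on the total scale. DKO CD8 and WT CD4 each had 2 H3K4me3 islands around the same 400 bp, 6917601 to 6918000, which the single WT CD8 island covered. H3K9ac held 121 reads in WT CD4, 34 in WT CD8 and 41 in DKO CD8. Its ratios were -0.51 for DKO CD8 over WT CD8 (-1.20 to 0.19), 0.62 for WT CD4 over WT CD8 (0.06 to 1.22) and -0.98 for DKO CD8 over WT CD4 (-1.52 to -0.45). On the total scale these turned to 0.09, -0.26 and 0.35. Tox had no H3K27me3 island in any group, and the other 3 H3K4me3 islands of the window, of 9 to 17 reads, were each called in 1 CD8 library.

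**Figure D5:**
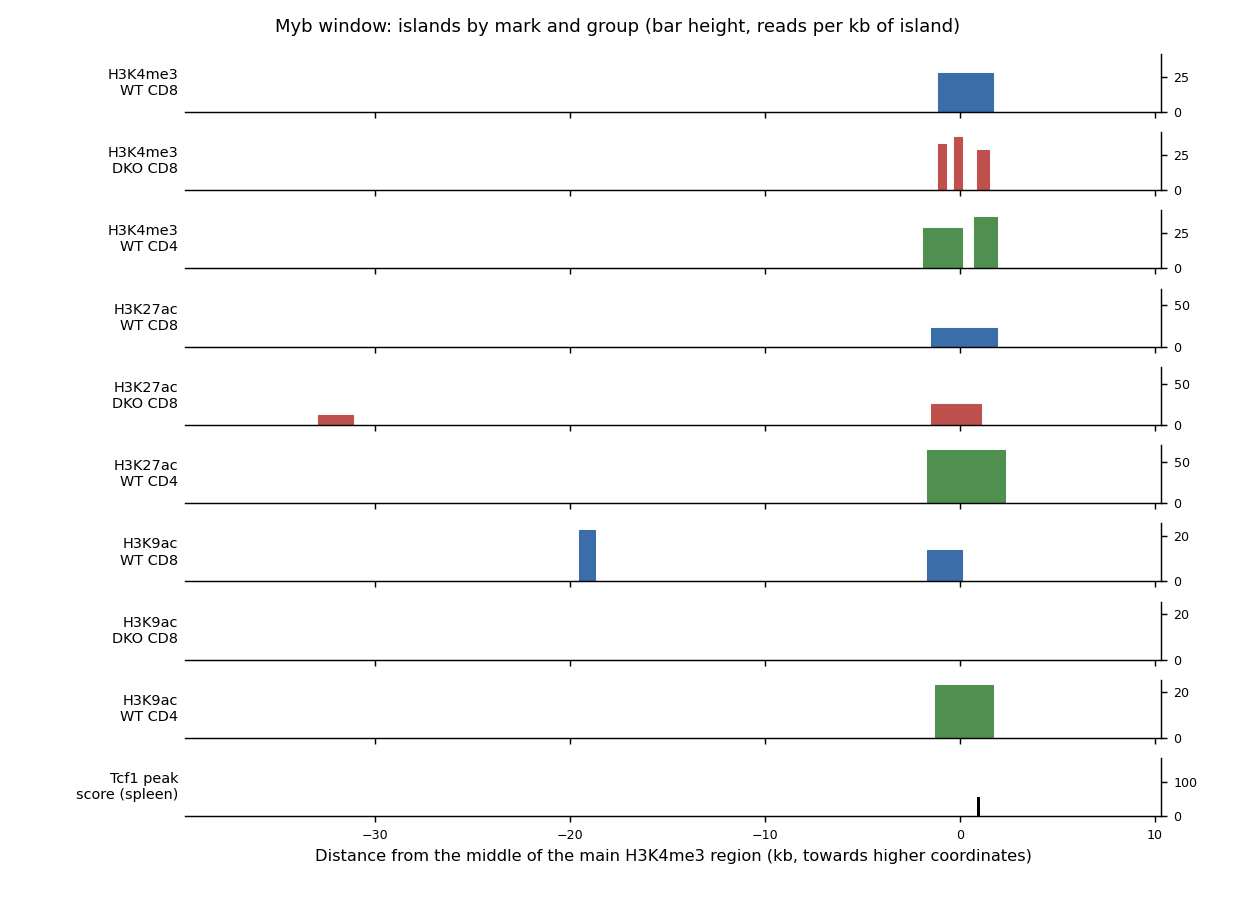
Islands in the Myb window by mark and group, and the Tcf1 peak from spleen (last row). The x axis is the distance in kb from the middle of the main H3K4me3 region and bar height is reads per kb of island (score for Tcf1); most islands gather at 1 place, 1 weak WT CD8 H3K9ac island and 1 weak DKO CD8 H3K27ac island lie left of it, DKO CD8 has no H3K9ac island, and its H3K4me3 is in 3 short islands.

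At Myb, unlike Gata3 and Tox, both H3K4me3 and H3K27ac were lower in DKO CD8 than in each wild-type group on the median scale, with counting intervals below 0. H3K4me3 held 101 reads in WT CD4, against 78 in WT CD8 and 45 in DKO CD8. WT CD8 had 1 island of 2800 bp, DKO CD8 had 3 of 400, 400 and 600 bp with 13, 15 and 17 reads, and WT CD4 had 2 with 57 and 44 reads. The log2 ratio was -0.87 for DKO CD8 over WT CD8 (-1.43 to -0.32) and -0.54 for DKO CD8 over WT CD4 (-1.08 to -0.02), with -0.15 and -0.69 on the total scale. Per kb of island both turned positive, at 0.18 and 0.46, and with only islands above their list's median reads DKO CD8 had none here. Relative to Gata3, where DKO CD8 was the higher of the CD8 groups, the H3K4me3 difference in summed reads was 3.76-fold (log2 1.91, 1.04 to 2.79). Per kb of island the same comparison turned, to 0.782-fold (log2 -0.35).

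No H3K9ac island was called at Myb in DKO CD8, whereas WT CD8 had 25 reads at the main region and WT CD4 had 69. At the median ratio DKO CD8 would have had 42.9 reads from the WT CD8 value and 46.0 from WT CD4, above the 23 and 30 reads of the smallest DKO CD8 islands of at least those widths. On the total scale the values would be 28.3 and 18.3, and the second is below that floor. Of the 4 H3K9ac regions in the windows with an island in either CD8 group, 2 were called in WT CD8 and not in DKO CD8, beside 51.7% over the genome, and 0 the other way, beside 27.3%. WT CD8 against WT CD4 gave 1 of 4 in WT CD8 alone (14%) and 0 in WT CD4 alone (74.2%), and WT CD4 against DKO CD8 gave 1 of 3 in WT CD4 alone (81.2%) and 0 in DKO CD8 alone (5.54%). The WT CD8 H3K9ac island at 20860201 to 20861000 (18 reads) and the DKO CD8 H3K27ac island at 20846801 to 20848600 (21 reads) were each called in 1 library, and no group had H3K27me3 in the window.

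Tcf1 peaks from spleen lay at all 3 genes. Gata3 had 2, at 9797624 to 9797958 (authors' score 75.56) and 9800086 to 9800373 (64.02), which flanked the WT CD8 H3K4me3 island. Myb had 1, at 20880567 to 20880731 (57.23), inside the main region. Tox had none there: its peaks at 6609101 to 6609236 (63.41) and 6609275 to 6609552 (150.61) are 38 bp apart and lie at -308.4 and -308.2 kb from the middle of the main H3K4me3 region, and 6897661 to 6897996 (96.87) lies at -19.8 kb. By score the strongest of the 6 ranked 1030 of 7807 and the weakest 6237. Of 40 kb tiles of the genome, 2.18% had at least 2 peaks, as Gata3 did, 14.5% of 325 kb tiles had at least 3, as Tox did, and 11.0% of 50 kb tiles had at least 1, as Myb did.

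H3K27ac islands of WT CD4 held 6 of the 6 peaks, those of WT CD8 4 and those of DKO CD8 3, while 81.5%, 55.8% and 74.8% of all Tcf1 peaks lay in them. Those outside DKO CD8 H3K27ac are the 3 of Tox. Its pair of far peaks began 101 and 275 bp beyond the end of a DKO CD8 island, and the third lay 18205 bp from one, in a region that was an island in WT CD4 alone. At Gata3 the peak at 9800086 lay outside each WT CD8 island and ended 28 bp before the WT CD8 H3K27me3 domain began. It lay 86 bp from the WT CD8 H3K9ac island, 286 bp from H3K27ac and 886 bp from H3K4me3, on a grid of 200 bp. In DKO CD8 and WT CD4 this peak was within H3K4me3 and H3K27ac, but it also lay 86 bp outside the DKO CD8 H3K9ac island. H3K4me3 islands overlapped 3 of the 6 peaks in WT CD4, against 1 in WT CD8 and 2 in DKO CD8 (41.6%, 34.5% and 35.5% of all peaks), and no peak lay in H3K27me3. The WT CD4 count includes the Gata3 peak at 9797624, whose centre lay outside the H3K4me3 island. The peaks are from mature splenic cells and the marks from thymocytes, so they show sites bound in another tissue.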

How the data were processed

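Data were 12 lists of histone mark islands, each from 1 thymocyte library, and 1 list of Tcf1 peaks from splenic CD8 cells, of 17 samples in all; the 3 inputs and the Tcf1-deficient library were not analysed here on their own. FastQC, Bowtie2 2.2.5, SICER 1.1, MACS 1.4.2 and mm9 are named in the submitters' processing notes, with no role for each. Values in the deposited histone lists are the read count of each island, not normalized. Each Tcf1 peak has a score by the authors, at least 50, used only to rank peaks within their list. Not given in the sources used here is the total of reads per library.

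Islands were merged by mark across the 3 groups (at least 1 bp), and ratios were taken where both libraries had an island. Ratios carry exact Clopper-Pearson intervals conditional on the sum of both counts. Reads outside islands are unknown, so a missing island gives no ratio. Widths and densities refer to islands. The plan was to name the main region per gene and mark, regions with a Tcf1 peak, and regions with at least 50 reads and a 2-fold ratio. Beyond that plan, weaker regions of the windows and some regions outside them are also given by coordinates, as a description. The members and lists were chosen with earlier results of these data known. Planned marker genes and genes of like pattern were not run, since they need an mm9 annotation. Promoters came from RefSeq (GRCm38.p6). Ratios used SciPy 1.17.1, pandas 2.3.3 and numpy 2.4.6 under Python 3.11.15, and were tested on simulated data first. Plots used matplotlib 3.10.9. Alternatives changed the scale, merging, islands kept, overlap, use of island length, read minimum, Tcf1 score and peak centre.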

Additional observations from a re-analysis of the deposited data

How the results depend on the processing

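DKO CD8 over WT CD4 for H3K27ac at the main regions kept its sign under all 7 alternatives run, from -1.002 to -0.58 at Gata3, -1.47 to -1.37 at Tox and -1.67 to -1.18 at Myb. Of 28 ratios at main regions, 12 changed sign with total island reads and 11 with reads per kb of island, including the Gata3 H3K4me3 ratios of DKO CD8 and WT CD4 over WT CD8 (-0.18 and -0.22); none did under the other 5. Between genes, some ratios of at least 2-fold changed sign per kb of island, also chosen after seeing the data. Gata3 over Myb for DKO CD8 against WT CD8 went to -0.053 for H3K27ac and -0.35 for H3K4me3. Gata3 over Tox H3K4me3 for WT CD4 against WT CD8 went to -0.46. Smaller ratios changed sign too, such as Gata3 over Tox for DKO CD8 against WT CD8. It went from 0.99 to -0.76 for H3K4me3 and from 0.65 to -0.66 for H3K27ac. Others kept their sign, such as Tox over Myb for DKO CD8 against WT CD8. Counts of active regions at least 2-fold apart moved as follows. With total island reads, 2 were higher and 0 lower in DKO CD8 than in WT CD8 (1 and 1 on the median scale), 5 higher in WT CD4 than in WT CD8 (1), and 1 higher in DKO CD8 than in WT CD4 (0), and 1 H3K27me3 region was higher in DKO CD8 than in WT CD8 (0). Per kb of island, 0 were higher and 0 lower in DKO CD8 than in WT CD8, 2 lower in DKO CD8 than in WT CD4 (4), and 1 lower in WT CD4 than in WT CD8 (0). With the scale set by regions that have H3K4me3 in all groups, chosen after seeing the data, 3 were lower in DKO CD8 than in WT CD8 and 0 higher in WT CD4 than in WT CD8. With islands above their list's median only, H3K27ac regions numbered 3 in WT CD4 and not DKO CD8, 3 in WT CD4 and not WT CD8, and 0 in DKO CD8 or in WT CD8 alone in any pair; H3K4me3 regions numbered 2 in WT CD4 and not DKO CD8, 1 in WT CD8 and not DKO CD8, and 0 in WT CD8 and not WT CD4 or in DKO CD8 and not either wild type; H3K9ac regions numbered 1 in WT CD8 and not DKO CD8 and 0 in WT CD8 and not WT CD4. At a score of at least 100, 1 of the 6 Tcf1 peaks remained. Overlaps between Tcf1 peaks and island lists numbered 22, and 20 when the peak centre had to lie in the island. No paired analysis was possible because each group has 1 library per mark. Low counts limit most intervals, and leaving out a library leaves no comparison.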

Other observations

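Outside the windows, H3K27ac was described within 300 kb on each side, a distance chosen after the windows had been seen. On the side of Myb with higher coordinates, towards its RefSeq neighbour Hbs1l, WT CD4 had 12 H3K27ac islands with 1133 reads, WT CD8 18 with 476 reads and DKO CD8 5 with 188 reads, and 6 Tcf1 peaks lay there. The region at chromosome 10, 20950801 to 20961200 (mm9), held a Tcf1 peak with a score of 338.87, which ranks 113 of 7807. The middle of this region lay 76.3 kb from the middle of the main Myb H3K4me3 region. H3K27ac reads in the region at 20950801 were 83 (WT CD8), 18 (DKO CD8) and 373 (WT CD4). DKO CD8 over WT CD8 was -3.67 on the median scale (-4.49 to -2.92), lower than all but 0.312% of shared regions, and -2.14 on the total scale, and DKO CD8 over WT CD4 was -3.98 (-4.75 to -3.30) and -4.02. The DKO CD8 island spanned 600 bp of this 10.4 kb region, so reads outside it are not known and the intervals do not bound the ratio. Unscaled density was 30.0 reads per kb of island in DKO CD8, against 23.1 in WT CD8 and 35.9 in WT CD4. A second region with 2 Tcf1 peaks, 20971201 to 20976400, had 53, 29 and 157 reads, and DKO CD8 over WT CD8 was -2.33 (-3.04 to -1.65; -0.80 on the total scale). Both were picked after their values were seen.

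On the side of Gata3 with lower coordinates, 2 wide H3K27ac regions had islands in WT CD4 and DKO CD8 but none in WT CD8. Over the genome, 18.8% of regions were called in WT CD4 and not in WT CD8, and 23.9% in DKO CD8 and not in WT CD8. In the same pairs, 64.9% and 61.2% were called in WT CD8 alone. The first of these 2 Gata3 regions, chromosome 2, 9513001 to 9520600, with 2 Tcf1 peaks, held 258 WT CD4 reads and 105 DKO CD8 reads. The second, 9605201 to 9616600, held 352 and 95. DKO CD8 over WT CD4 in summed reads was -0.90 (-1.25 to -0.57) and -1.50 (-1.84 to -1.17). Island length in DKO CD8 was 3000 and 4400 bp, against 7600 and 11400 bp in WT CD4. Unscaled density in the first region was 35.0 reads per kb of island in DKO CD8 and 33.9 in WT CD4, so it was not lower. In the second region it was 21.6 and 30.9. For these 2 regions, any signal beyond the called islands is missing from the ratios and their intervals. Both were picked after their values were seen. On the other side of Gata3, the region 10000601 to 10002800 held 206 WT CD4 reads, 157 DKO CD8 reads and 36 WT CD8 reads, and DKO CD8 over WT CD4 was 0.0014 (-0.31 to 0.31). Unscaled, it held 129, 71.4 and 30.0 reads per kb of island in the same order, and it too was picked after its values were seen. Farther out on this side, 10073001 to 10077200 was called in WT CD4 alone (108 reads) and 10099001 to 10102800 in WT CD8 alone (112 reads). Beyond Tox, chromosome 4, 7023001 to 7029200 was called in WT CD8 alone (166 reads).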
